A study of Mus musculus with 28 samples.

Results

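Pou4f3 was induced on its own in mouse embryonic stem cells of the iPou4f3 line, and the genes that rose and fell were read from 4 of the 28 libraries of the series, 2 from cells given doxycycline (Dox) and 2 from untreated cells of the same line (No Dox). The libraries were chosen by line and treatment as the sample titles give them. The iPou4f3 line derives from A2loxCre cells and carries a Dox-inducible cassette in which Myc-tagged Pou4f3 is followed by the yellow fluorescent reporter mVenus. Embryoid bodies (EBs), the aggregates in which stem cells differentiate, received 2 µg/ml of Dox on day 4 and were collected 48 h later, on day 6. Dox cells were sorted for mVenus, whereas untreated EBs of day 6 were used whole, so Dox and sorting cannot be told apart within the line. The other 6 lines had the same parent, treatment, sort and number of libraries and carried Atoh1 (iAtoh1), Gfi1 (iGfi1), Gfi1 and Atoh1 (iG+A), Gfi1 and Pou4f3 (iG+P), Pou4f3 and Atoh1 (iP+A) or all of them (iGPA). The series record describes the replicates of a line as different clones, so the spread between them is that between clones.

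Pou4f3 is a transcription factor of the POU-homeodomain class. It is best known from the hair cells of the inner ear, which turn sound and head movement into nerve signals and die without it, and it is also made in sensory neurons of ganglia and retina together with its relatives Pou4f1 and Pou4f2. Factors of this class bind AT-rich DNA and act on genes of synapses, axons and cell survival. In the inner ear Pou4f3 works downstream of Atoh1, a basic helix-loop-helix factor, and upstream of the zinc finger factor Gfi1.

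Promoters of 6 genes that rose with Dox in iPou4f3 cells are shown because a POU-homeodomain factor was the induced gene and AT-rich letters differ between them. They are RefSeq sequences of GRCm38.p6, each 300 bases long and written along the gene's strand, with 250 bases before the start of transcription. Miat (chr5:112228899-112229198, minus strand), Lrrtm4 (chr6:80018627-80018926, plus strand, 1 of 2 starts), Sncg (chr14:34374620-34374919, minus strand) and Mstn (chr1:53061390-53061689, plus strand) are 4 of the strongest rises. Cdh26 (chr2:178430265-178430564, plus strand) and Bdnf (chr2:109692777-109693076, plus strand, 1 of 7 starts) hold the letters ATTAAT, written in capitals. Below each name the letters run 5′ to 3′.
Miat: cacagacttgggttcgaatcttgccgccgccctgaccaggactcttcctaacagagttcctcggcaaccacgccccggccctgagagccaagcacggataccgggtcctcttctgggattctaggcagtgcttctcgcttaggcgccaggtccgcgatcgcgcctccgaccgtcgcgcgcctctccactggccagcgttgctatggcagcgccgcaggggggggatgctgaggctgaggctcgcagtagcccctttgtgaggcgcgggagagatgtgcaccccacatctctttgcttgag
Lrrtm4: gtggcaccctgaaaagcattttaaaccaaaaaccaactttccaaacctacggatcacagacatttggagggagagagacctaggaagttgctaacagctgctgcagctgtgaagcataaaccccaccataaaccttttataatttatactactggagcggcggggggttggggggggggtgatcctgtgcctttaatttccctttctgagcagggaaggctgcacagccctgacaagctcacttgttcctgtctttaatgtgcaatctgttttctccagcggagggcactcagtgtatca
Sncg: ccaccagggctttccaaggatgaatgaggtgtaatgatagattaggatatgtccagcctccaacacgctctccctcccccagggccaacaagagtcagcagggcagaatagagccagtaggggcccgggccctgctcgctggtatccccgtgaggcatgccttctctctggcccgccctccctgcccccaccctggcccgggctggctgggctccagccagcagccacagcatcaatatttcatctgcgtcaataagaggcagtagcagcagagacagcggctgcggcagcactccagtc
Mstn: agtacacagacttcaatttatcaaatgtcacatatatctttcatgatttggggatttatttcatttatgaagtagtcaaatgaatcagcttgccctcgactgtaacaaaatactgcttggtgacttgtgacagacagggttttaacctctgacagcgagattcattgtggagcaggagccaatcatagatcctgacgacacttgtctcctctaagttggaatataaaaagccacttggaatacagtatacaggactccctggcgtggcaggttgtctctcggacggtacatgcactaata
Cdh26: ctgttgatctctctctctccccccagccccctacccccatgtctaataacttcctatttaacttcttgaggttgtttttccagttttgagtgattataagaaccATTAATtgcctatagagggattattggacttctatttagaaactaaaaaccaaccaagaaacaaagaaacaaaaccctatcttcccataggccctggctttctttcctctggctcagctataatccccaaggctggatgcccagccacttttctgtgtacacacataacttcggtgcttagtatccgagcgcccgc
Bdnf: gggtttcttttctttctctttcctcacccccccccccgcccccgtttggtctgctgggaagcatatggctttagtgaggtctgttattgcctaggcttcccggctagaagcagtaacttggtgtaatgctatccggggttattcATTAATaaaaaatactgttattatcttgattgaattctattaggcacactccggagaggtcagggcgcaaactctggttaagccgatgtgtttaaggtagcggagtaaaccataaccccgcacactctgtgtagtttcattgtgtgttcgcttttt

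The promoters of Miat, Lrrtm4, Sncg and Mstn did not hold ATAATTA on either strand, nor the octamer-like letters ATGCAA, nor TGCATAA as in sites of the Pou4f class, nor ATTAAT. Of other strong rises whose promoters are not printed, Myt1 held ATGCAA, while C1qb and Serpina3g held none of these letters. In Cdh26 ATTAAT began 146 bases before the start, and in Bdnf 106 bases before it. RefSeq promoters were matched for 177 of the genes called up (71.4%), with 228 starts, and ATTAAT, which reads the same on both strands, stood in 20 of them (8.77%), from 18 genes. Among these genes were the defensins Defa20, Defa32 and Defa35, whose family holds near-identical copies, so not all 18 are independent. ATTAAT stood in 2.54% of the 16562 promoters of all genes tested, in 4.75% of all 32851 promoters and in 1.23% of the 81 promoters of genes called down. ATAATTA, which shares letters with ATTAAT (198 promoters held both), stood in 2.19% of promoters of genes up and 1.32% of those of tested genes. TGCATAA gave 2.19% and 1.55%, and ATGCAA 10.1% and 7.99%, with 17.3% in the promoters of genes down. The promoters of genes up had a median GC content of 56.7%, against 59.7% for all tested genes and 45.7% for the 20 that held ATTAAT, and the part of base composition in these shares was not tested. ATTAAT and ATGCAA were chosen after values were seen, and a match marks letters only.

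The 4 iPou4f3 libraries held 35.2 to 44.0 M reads as estimated from the steps between low values, and between 17796 and 17837 genes were above 0 in each. Values are normalized counts, which the authors scaled to a common library size, and 3 reads correspond to 3.38 normalized counts in untreated and 2.94 in Dox cells. Marker genes of several cell types were expressed in the untreated EBs, with sums of 26284 and 31565 normalized counts over 23 pluripotency genes, 547819 and 424307 over 24 blood genes and 497243 and 340980 over 21 fibroblast genes. With Dox the same sums were 17271 and 21149, 306172 and 289763, and 398032 and 247177. Immediate early genes, which rise during tissue dissociation, summed to 260355 in untreated replicate 1, 153243 in untreated replicate 2, and 124006 and 119227 with Dox, so untreated replicate 1 stood above the other 3 libraries. Such bulk values cannot tell fewer cells of a type from less RNA per cell.

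Pou4f3 had 7.93 and 2.22 normalized counts in untreated iPou4f3 cells and 4694 and 5381 with Dox, a log2 fold change of 9.87 with a standard error of 0.46 (limma adjusted p = 4.55e-10). Both Dox libraries thus stood far above both untreated ones, and the counts do not separate the cassette from the gene on chromosome 18 (42554251 to 42555747 in NCBIM37, the annotation of the files' build mm9). Log2 fold changes here are on the scale of log2(normalized count + 1), a scale on which changes of sparsely counted genes look smaller, and adjusted p-values are from limma with Benjamini-Hochberg adjustment over 16837 genes. Gfi1 had 29.1 and 46.4 normalized counts without Dox and 113 and 106 with it (log2 fold change 1.55, standard error 0.25, limma adjusted p = 0.000861). Its rise passed the threshold, but without untreated replicate 1 it came to 1.22 (adjusted p = 0.0309), with all 14 untreated libraries as one control to 0.90 (adjusted p = 0.145). Its Dox levels lay inside the range of the 12 untreated libraries of the other lines (27.3 to 119). Atoh1 had 6.78 and 13.3 without and 14.3 and 20.5 with Dox, a log2 fold change of 0.78 that did not pass (limma adjusted p = 0.217). Pou4f1, the relative found in sensory neurons, had 37.3 and 35.7 without and 84.6 and 199 with Dox, a log2 fold change of 1.80 (limma adjusted p = 0.0463). That call was lost when untreated replicate 1, untreated replicate 2 or Dox replicate 2 was left out (adjusted p up to 0.374), and the Dox replicates lay far apart. Pou4f2 had 0 and 2.23 normalized counts without and 0.89 and 8.80 with Dox, so its groups overlapped (log2 fold change 1.26, limma adjusted p = 0.516).

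With Dox, 248 genes rose in iPou4f3 cells and 102 fell, at an adjusted p under 0.05 and a change of 1.5 or more in log2 units. These were 1.47% and 0.606% of the 16837 genes tested, and 3065 genes (18.2%) had an unadjusted p under 0.05, 10.1% of those tested upward and 8.15% downward, which are the shares to set beside the counts of each gene list. Genes that rose were mostly low before induction, with a median of 22.6 normalized counts without and 148 with Dox. Of the 248, 120 had an untreated mean under 20 normalized counts and 14 were at 0 in both untreated libraries. Genes that fell had a median of 63.9 without and 14.4 with Dox. Median log2 fold changes were 2.53 for genes up (1.5 to 9.87) and −2.0 for genes down (−7.14 to −1.51), beside −0.0047 over all genes tested. In all 248 and 102 genes the Dox and untreated libraries did not overlap, which also held for 25.2% of tested genes upward and 26.3% downward. Leaving out any 1 of the 4 libraries gave 168 to 199 genes up, and genes down numbered 15 without untreated replicate 1, 67 without untreated replicate 2, 48 without Dox replicate 1 and 56 without Dox replicate 2. A fit of only the 4 libraries compared gave 117 up and 18 down, and kept 115 of the 248 rises and 14 of the 102 falls. Single genes were followed in it only where they belong to the named genes defined below. Ebf1, Gad2, Htr4, Plek, Gp5, Btk and others described as called were not followed. Among genes described as called, Gfi1, Pou4f1, Bdnf, Loxhd1, Prrxl1, Insm1, Barhl2, Tac1, Dcx, Grin2c, Grm4, Hrk, Cacna2d2, Kcnj12, Htr1a, Stra6, Slc17a4, Slc9a9, Ntn4, Sema4f, Sema3d, Pcdh10, Cdh15, Rbp4, Lyve1 and 10 of the 15 strongest falls lost their call in that fit (adjusted p from 0.0525 to 0.276).

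Untreated cells of the other lines gave a further background for the same genes. Of the 248 genes up, 236 (95.2%) had Dox levels above all 12 untreated libraries of the other lines, against 7.02% of all tested genes. Of the 102 genes down, 44 (43.1%) had Dox levels below all 12, against 4.36% of tested genes. The rises thus left the range of untreated EBs of the other lines in nearly every case, and the falls did so less often than not. The same Dox libraries had set the calls, so shares above those of all tested genes follow in part from that choice.

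Genes known from nerve cells and their synapses stood among the strongest rises. Lrrn3 (chromosome 12, 42178260 to 42212338), a leucine-rich repeat protein of neurons, was at 0 in both untreated libraries and had 523 and 394 normalized counts with Dox, at least 135-fold higher against a floor of 3 reads per library (log2 fold change 8.83, standard error 0.89, limma adjusted p = 5.01e-06). Nptx1 (chromosome 11, 119400033 to 119409067), a secreted pentraxin that gathers glutamate receptors at synapses, went from 9.03 and 12.3 to 2218 and 2482 (7.67, standard error 0.46, limma adjusted p = 5.81e-09). Miat (chromosome 5, 112642248 to 112657968), a long noncoding RNA of neurons and retina, went from 11.3 and 15.6 to 2105 and 2130 (7.21, standard error 0.60, limma adjusted p = 4.78e-07). In these genes the Dox libraries lay close together and far above both untreated ones. Sncg (chromosome 14, 35183460 to 35187975), the synuclein of sensory neurons and retinal ganglion cells, had 29.4 and 18.9 normalized counts without and 2799 and 2922 with Dox (6.86, standard error 0.37, limma adjusted p = 1.12e-09). Lrrtm4 (chromosome 6, 79968871 to 80760137), a postsynaptic adhesion protein, went from 26.7 and 4.73 to 1755 and 1544 (7.03, standard error 1.46, limma adjusted p = 0.00727). Its call was lost without untreated replicate 2, Dox replicate 1 or Dox replicate 2 (adjusted p up to 0.0933), with a fold change of 5.89 at the lowest. Adam11 (chromosome 11, 102622753 to 102641576), a neuronal member of the ADAM family without protease activity, went from 53 and 65.8 to 3337 and 3909 (5.91, standard error 0.30, limma adjusted p = 6.96e-10). The zinc finger factor Myt1 of newborn neurons went from 4.31 and 2.84 to 194 and 270 (5.67).

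Other strong rises were not genes of nerve cells. Growth hormone (Gh) was at 0 in both untreated libraries and had 74.1 and 89.8 normalized counts with Dox, at least 24.2-fold higher. Cps1, which opens the urea cycle in liver, had 1.13 and 1.12 without and 165 and 169 with Dox, a ratio of 149 with a 95% counting interval of 41.0 to 1236. Mstn, the secreted brake on muscle growth, had 0 and 2.23 without and 156 and 121 with Dox (ratio 124, 34.2 to 1033). These genes went from the limit of detection to levels that the depth resolved well. C1qb, a chain of complement C1q, had 1.13 and 0 without and 67.7 and 57.7 with Dox (ratio 112, 19.8 to 4473). Paqr9, a membrane protein of the adiponectin receptor family, had 1.13 and 1.11 without and 109 and 90.8 with Dox (ratio 89.5, 24.5 to 744). Cdh26, an epithelial cadherin, rose from 1.13 and 3.35 to 157 and 140 (log2 fold change 5.61). Serpina3g, a protease inhibitor whose reads can be shared with near copies in its cluster, rose from 11.4 and 15 to 597 and 620 (5.44). Intervals cover counting error only. Each of the 15 strongest rises, Lrrtm4 apart, kept its call whichever of the 4 libraries was left out, and all 15 kept it in the fit of only the 4 libraries.

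**Figure D1:**
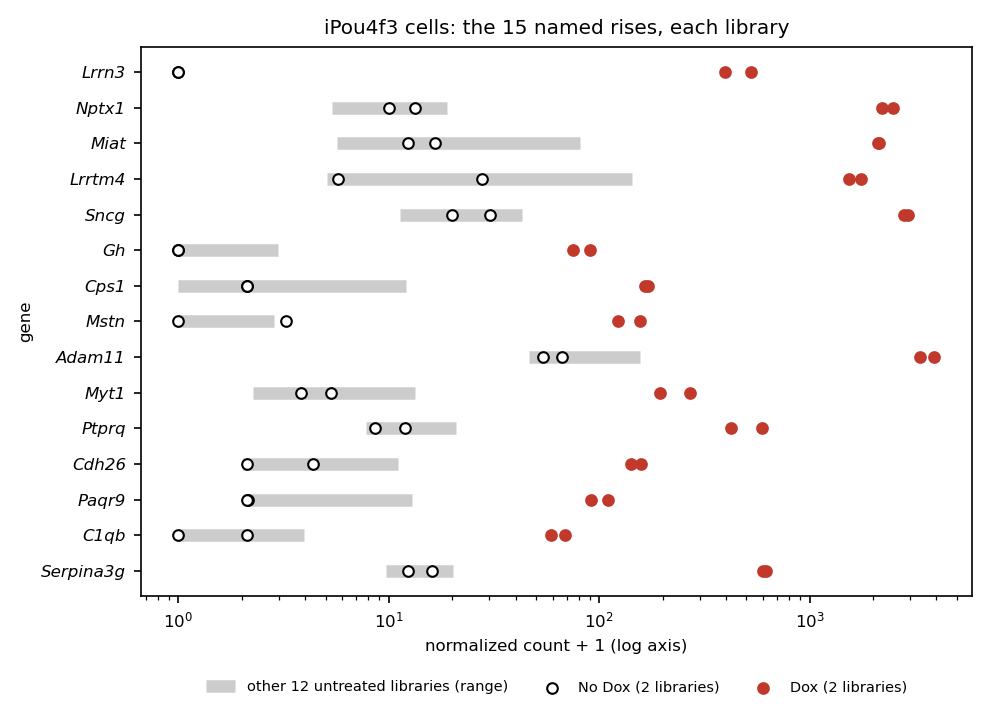
Normalized count plus 1 (log axis) of the 15 named rises in each iPou4f3 library, open circles for the 2 untreated and red circles for the 2 Dox libraries; the grey bar is the range of the 12 untreated libraries of the other lines. In all 15 genes both red points lie to the right of the grey bar, and Lrrn3, which shows no bar because the other lines were at 0 too, had 523 and 394 with Dox.

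Several structural genes of hair cells rose in iPou4f3 cells, whose cassette lacks Atoh1. Of 41 tested genes of hair bundle and hair cell synapse, 9 passed the threshold upward and 0 downward, beside 1.47% and 0.606% of all tested genes (limma, 0 downward at an unadjusted p under 0.05 and 17 upward), with a median log2 fold change of 0.41. Ptprq, the receptor phosphatase that joins stereocilia at their shafts, had 11.0 and 7.62 normalized counts without and 595 and 423 with Dox (log2 fold change 5.63, standard error 0.45, limma adjusted p = 3.44e-07). Otof, the calcium sensor of transmitter release in hair cells, went from 11.3 and 7.81 to 231 and 414 (4.90, standard error 0.48, limma adjusted p = 4.00e-06). Ush1g, a scaffold of the tip link, went from 3.39 and 1.12 to 55.2 and 56.7 (4.23). In all of them both Dox libraries stood clear of both untreated ones. Grxcr2, a protein of the base of stereocilia, had 1.13 and 1.12 without and 22.2 and 24.5 with Dox (ratio 20.8, counting interval 5.47 to 177). Pcdh15, a cadherin of the tip link, went from 74.1 and 79.5 to 430 and 409 (2.43). Loxhd1, another stereocilia protein, went from 16.7 and 7.73 to 92.4 and 98.6 (2.96), but lost its call without untreated replicate 2 or either Dox replicate (adjusted p up to 0.118). Smaller rises passed for Atp2b2, the calcium pump of the bundle (2.30), Ush1c, a further scaffold (2.28), and Myo3b, a motor of stereocilia tips (1.82).

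Otof was the only one to pass among 6 hair cell markers that the paper followed by PCR in other lines of the series. Myo7a, the myosin that marks all hair cells, had 1956 and 1910 normalized counts without and 1785 and 1888 with Dox, a log2 fold change of −0.07 with a standard error of 0.13 (limma adjusted p = 0.814). Myo6, the myosin that anchors stereocilia, had 2160 and 2672 without and 3008 and 3340 with Dox (0.40, limma adjusted p = 0.291). Both were thus well expressed in EBs before induction. The LIM factor Lhx3 stayed at or under 1.62 in all 4 libraries. Espn, the actin bundler of stereocilia, changed by −0.26 (limma adjusted p = 0.756) and Cdh23, the partner of Pcdh15 at the tip link, by 0.49 (limma adjusted p = 0.719), within the spread of their replicates. Among 7 genes known to depend on Pou4f3 in hair cells, Gfi1 and the neurotrophin Bdnf passed. Bdnf had 34.8 and 38.4 without and 109 and 108 with Dox (1.54, limma adjusted p = 0.0126), close to the fold threshold, and lost its call when any 1 of the 4 libraries was left out (adjusted p up to 0.110).

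Factors of sensory neurons and general neuronal genes moved in part. Of 23 tested transcription factors of peripheral sensory neurons 3 passed upward and 0 downward (limma, 8 and 1 at an unadjusted p under 0.05), and the median log2 fold change was 0.83. Prrxl1, a homeodomain factor of pain-sensing neurons, had 2.02 and 0 normalized counts without and 30.6 and 29.5 with Dox (ratio 26.6, counting interval 7.08 to 225). The zinc finger factor Insm1 of newborn neurons went from 2.26 and 5.57 to 27.6 and 35.2 (2.80, limma adjusted p = 0.00178), but its call was lost with all 14 untreated libraries as one control (1.45, adjusted p = 0.0801). Pou4f1 was the other. Isl1, a LIM factor of sensory neurons, had 331 and 692 without and 662 and 770 with Dox (0.58, limma adjusted p = 0.545). Among 29 tested receptors, channels and peptides of sensory neurons, Sncg and Tac1 passed, the latter encoding substance P, with 0 and 0.918 without and 14.6 and 22.7 with Dox (ratio 32.5, counting interval 5.5 to 1315; call lost without untreated replicate 1 or Dox replicate 2, adjusted p up to 0.0997). Among 38 tested genes of most neurons 4 passed upward and 0 downward (limma, 11 and 4 at an unadjusted p under 0.05), and the list's median was 0.24. They were Myt1, the RNA-binding protein Elavl4 (3.09), the vesicle calcium sensor Syt1 (2.85) and the microtubule protein Dcx (2.15, call lost without untreated replicate 1 or Dox replicate 2, adjusted p up to 0.161). Tubb3, the tubulin of neurons, had 123 and 139 without and 184 and 245 with Dox (0.69, limma adjusted p = 0.326).

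The proneural and Notch genes gave no call in iPou4f3 cells. Of 28 tested, 0 passed in either direction by limma, with 6 upward and 2 downward at an unadjusted p under 0.05. The list's median change was 0.05 on the log2 scale, beside 1.79 in iAtoh1 cells, and each line was set against its own controls. Neurog2, a proneural factor, had 3.39 and 0 normalized counts without and 7.13 and 16.6 with Dox (limma adjusted p = 0.134). Neurod1, which acts after such factors, had 16.9 and 29.0 without and 16.9 and 95.8 with Dox, so its groups overlapped. Barhl2, a homeodomain factor of dorsal interneurons, passed at 0 and 4.46 without and 38.3 and 31.3 with Dox (3.93, limma adjusted p = 0.0432), but not without untreated replicate 1 or either Dox replicate (adjusted p up to 0.386).

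Among the 248 rises 25 transcription factors were picked out after values were seen, and how many such factors were tested was not counted. Their log2 fold changes ran from 1.5 to 5.67 with a median of 2.80. Ebf1, a helix-loop-helix factor of maturing neurons, had 67.6 and 59.4 normalized counts without and 1330 and 1230 with Dox (4.31, standard error 0.41, limma adjusted p = 2.31e-06). Lhx5, a LIM homeodomain factor of hindbrain and cord, went from 6.77 and 15.6 to 329 and 263 (4.70, standard error 0.66, limma adjusted p = 0.000218). Dach1, a cofactor of eye and ear development, went from 77.8 and 172 to 846 and 1201 (3.11). All 3 had Dox levels far above both untreated libraries. Ebf3 rose from 257 and 277 to 987 and 1076 (1.95), the helix-loop-helix factor Nhlh1 of newborn neurons from 4.52 and 12.3 to 104 and 126 (3.76) and the LIM-only cofactor Lmo1 from 27.1 and 45.8 to 319 and 467 (3.42). Tfap2b, Irx6, Irx5, Onecut1, Onecut3, Foxp2 and Eya4 were others of the group. Of the 25, 23 were also called up in iP+A, 21 in iGPA, 18 in iG+P, 17 in iG+A, 10 in iAtoh1 and 3 in iGfi1 cells.

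Adhesion and guidance molecules of axons and synapses were also among the rises. Of 71 tested guidance ligands and receptors, 8 passed upward and 0 downward, beside 1.47% and 0.606% of all tested genes (limma, 21 and 4 at an unadjusted p under 0.05), and the median log2 fold change was 0.15. Unc5d, a netrin receptor, had 24.8 and 35.7 normalized counts without and 544 and 473 with Dox (4.04, standard error 0.42, limma adjusted p = 7.14e-06). Ntng2, a netrin relative held at the membrane, went from 22.6 and 26.8 to 203 and 203 (2.99), and the secreted semaphorin Sema3c from 25.3 and 30.1 to 215 and 210 (2.90). Both kept their call whichever library was left out, while Ntn4, Sema4f and Sema3d, with fold changes between 1.87 and 2.08, lost theirs without at least untreated replicate 1 (adjusted p up to 0.273). The ephrin receptor Ephb1 (1.78) and the ephrin Efna3 (1.66) also passed. Leucine-rich repeat proteins of neurons, picked after values were seen, made up 12 rises. Of 96 tested genes with the names of such proteins, in neurons or elsewhere, 11 were up, beside 1.47% of all tested genes. Rtn4rl2, a receptor of the Nogo family, went from 16.9 and 14.5 to 400 and 528 (4.79), its relative Rtn4rl1 from 122 and 171 to 1376 and 1483 (3.30) and Lrrn1, a relative of Lrrn3, from 42.9 and 59.2 to 828 and 804 (3.99). All 12 were also called up in iP+A cells, 10 in iGPA, 9 in iG+P, 8 in iG+A, 4 in iAtoh1 and 0 in iGfi1 cells by limma.

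Cadherins outside the clustered protocadherins gave 6 rises and 1 fall among 36 tested (limma, 11 and 3 at an unadjusted p under 0.05). Besides Cdh26 and Pcdh15 the rises were Cdh19 (4.07), Pcdh8 (3.37), Pcdh10 (2.70) and Cdh10 (1.72). The first 3 of these lost their call when some library was left out, and Cdh10 was not followed there. Cdh15, a cadherin of muscle, fell from 21.4 and 13.4 to 1.78 and 8.81 (−1.78, limma adjusted p = 0.0332), but not in the fit with the replicate as a block (limma adjusted p = 0.0525) nor without untreated replicate 1, untreated replicate 2 or Dox replicate 1 (adjusted p up to 0.432).

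A few genes of excitability and transmitter reception rose in iPou4f3 cells. Of 128 tested subunits of voltage-gated channels 4 passed upward and 0 downward, beside 1.47% and 0.606% of all tested genes (limma, 24 and 12 at an unadjusted p under 0.05, beside 10.1% and 8.15%). Kcnv1, a silent potassium channel subunit, had 0.946 and 0.935 normalized counts without and 41.9 and 60.0 with Dox (ratio 45.0, counting interval 12.2 to 376). Kcnd2, a subunit of the A-type potassium current, went from 32.7 and 43.5 to 346 and 348 (3.17), and Cacna2d2, an auxiliary calcium channel subunit, from 470 and 614 to 1588 and 2242 (1.81). Kcnj12, an inward rectifier, lost its call without untreated replicate 1 or Dox replicate 2 (adjusted p up to 0.339). Of 75 transmitter receptor subunits 8 passed upward and 1 downward (limma, 19 and 4 at an unadjusted p under 0.05). Gria4, an AMPA receptor subunit, had 202 and 197 without and 840 and 1013 with Dox (2.20, standard error 0.32, limma adjusted p = 0.000273). Grin2c, an NMDA receptor subunit (2.23), and Grm4, a metabotropic glutamate receptor (1.96), kept their calls whichever library was left out but not in the fit of only the 4 libraries (adjusted p = 0.0847 and 0.0532). Gabra4, a GABA receptor subunit, had the highest fold change of the list (3.57) but lost its call when any 1 library was left out (adjusted p up to 0.118). Htr4, a serotonin receptor, fell (−1.83), and Htr1a, another, was at 0 without and at 5.35 and 2.94 with Dox. These Htr1a values lie near the floor of 3 reads, and its call was lost with a pseudocount of 5 (0.86, limma adjusted p = 0.109).

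A gene that makes GABA and another that loads it, named after values were seen, both rose. Gad2, which synthesises GABA, had 120 and 71.1 normalized counts without and 684 and 875 with Dox (3.05, standard error 0.46, limma adjusted p = 0.000436). Slc32a1, which loads it into vesicles, had 287 and 224 without and 986 and 1104 with Dox (2.04, standard error 0.28, limma adjusted p = 0.000162). In both genes the Dox libraries stood above the untreated ones. Among 341 tested solute carriers the rises numbered 4, a share near the 1.47% of all tested genes, with 35 rising and 19 falling at an unadjusted p under 0.05 (limma, 0 called down). They included Slc32a1, Slc17a4, a phosphate carrier of gut and kidney, and Slc9a9, a proton exchanger of endosomes. Of 14 tested genes of retinoic acid handling, Cyp26b1, the enzyme that degrades retinoic acid, rose from 104 and 109 to 909 and 904 (3.08, standard error 0.33, limma adjusted p = 9.13e-06). Stra6, a membrane receptor that imports retinol, rose from 6.12 and 12 to 31.8 and 35.3 (1.85, call lost without untreated replicate 1 or either Dox replicate, adjusted p up to 0.161). Hrk, which promotes neuronal cell death, was the only member of 15 Bcl2 family genes to pass, with 32.7 and 37.9 without and 162 and 249 with Dox (2.48, limma adjusted p = 2.97e-05).

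**Figure D2:**
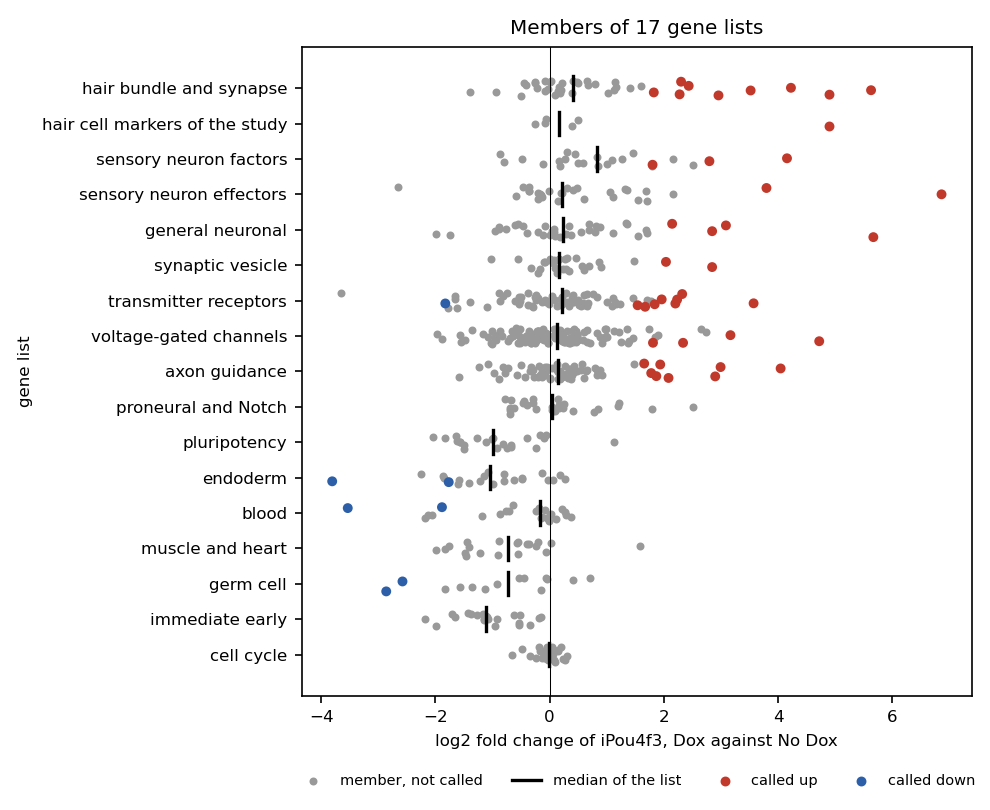
Log2 fold change in iPou4f3 cells (Dox against No Dox) of each tested member of 17 gene lists, grey where not called, red where called up and blue where called down; the black bar is the list's median. Red points are scattered through the hair cell and neuronal lists, with medians of 0.41 for hair bundle and synapse and 0.83 for sensory neuron factors, while pluripotency (median −0.99), endoderm (−1.04) and immediate early genes (−1.11) lie mostly left of 0.

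Genes of blood cells, endoderm and the germ line were among the strongest falls, most of them low before induction. Lilr4b, a receptor of leukocytes, had 26.5 and 27.3 normalized counts without and 0 and 0 with Dox, at least 9.16-fold lower (log2 fold change −4.80, standard error 0.73, limma adjusted p = 0.000473). Its reads can be shared with the near copy Lilrb4a, which had 36.1 and 31.2 without and 1.78 and 1.96 with Dox, but which ran from 0 to above 50 among the untreated libraries of all lines. Slamf1, a receptor of lymphocytes and blood progenitors, had 114 and 66.3 without and 5.28 and 4.84 with Dox (−3.86, standard error 0.74, limma adjusted p = 0.00375). Pf4, the chemokine of platelets, had 63.6 and 90.7 without and 8.05 and 3.89 with Dox (−3.53, limma adjusted p = 0.0380). In each of them both Dox libraries lay below both untreated ones. Ccl3, a chemokine of macrophages (−3.03), Fcgr3, an Fc receptor (−2.50), and Il17f, a cytokine of lymphocytes (−2.73), were others among the 15 strongest falls. Afp, the fetal serum protein made by visceral endoderm, had 22.6 and 36.8 without and 3.56 and 0 with Dox (−3.81, limma adjusted p = 0.0229). The homeobox genes Rhox6 (−2.86) and Rhox9 (−2.58), near copies of each other that are used in germ cells and placenta, fell too, as did Serpinb6c, whose ratio without to with Dox was 80.5 (counting interval 14 to 3225) and whose cluster also holds near copies. The remaining falls of the 15 were Mogat1, 2900060B14Rik, Serpina3b, Gml2 and Gm3893. Only Lilr4b kept its call whichever library was left out, and without untreated replicate 1, the library with high immediate early genes, Lilr4b and Gml2 alone of the 15 were called. With the other libraries left out 4, 4 and 6 of the 15 were called, the largest adjusted p being 0.393 for Gm3893 without Dox replicate 1.

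Mogat1, an enzyme of triglyceride synthesis, had 564 and 543 normalized counts in untreated iPou4f3 cells and 21.5 and 23.9 with Dox (−4.55, standard error 1.00, limma adjusted p = 0.0109). The other 12 untreated libraries ranged from 16.8 to 142 with a median of 33.1. The untreated iPou4f3 libraries were therefore the high ones, and the Dox libraries lay inside the range of the other lines. The same held for the Dox levels of 2900060B14Rik, Pf4, Serpina3b, Ccl3, Gml2 and Il17f. Lilr4b, Serpinb6c, Afp, Rhox6, Gm3893, Rhox9 and Fcgr3 lay below all 12 with Dox. With all 14 untreated libraries as one control 9 of the 15 strongest falls kept their call. Mogat1 (−1.62), Slamf1, Pf4, Serpina3b, Ccl3 and Gml2 lost it.

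**Figure D3:**
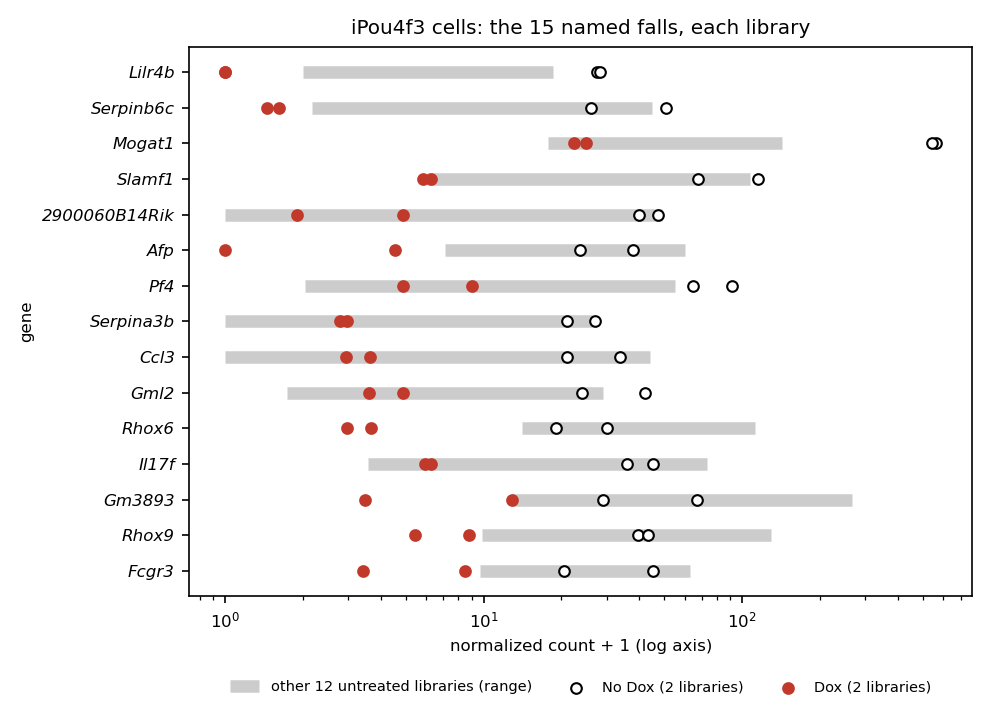
Normalized count plus 1 (log axis) of the 15 named falls in each iPou4f3 library, open circles for the 2 untreated and red circles for the 2 Dox libraries; the grey bar is the range of the 12 untreated libraries of the other lines. Both red points lie inside the bar in 7 genes, among them Mogat1, whose untreated iPou4f3 libraries lie to its right, and below it in another 7.

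Lists of other cell types gave at most 2 falls each, beside 0.606% of all tested genes called down. Of 24 tested blood genes 2 passed downward, with Pf4 among them, and 7 were lower at an unadjusted p under 0.05. The list had a median of −0.17 and none of its genes was at 0 in all 4 libraries. Of 22 endoderm genes 2 passed downward, Afp and the retinol carrier Rbp4 (−1.77, call lost without either untreated replicate or Dox replicate 2, adjusted p up to 0.365), with a median of −1.04 and 10 at an unadjusted p under 0.05. Of 14 germ cell genes Rhox6 and Rhox9 passed downward, with a median of −0.73. Of 20 endothelial genes only Lyve1 passed (−2.27, lost whichever library was left out, adjusted p up to 0.279). Pluripotency genes had a median of −0.99 with 0 called by limma and 7 of 23 downward at an unadjusted p under 0.05, and Pou5f1 had 807 and 1088 normalized counts without and 325 and 684 with Dox. The lower medians of endoderm, germ cell and pluripotency genes were not particular to iPou4f3 cells. In iAtoh1 and iGfi1 cells they were −1.11 and −1.18 for endoderm, −1.72 and −0.83 for germ cell and −1.52 and −0.73 for pluripotency genes. For blood genes they were −2.22 and 0.85, and for endothelial genes −0.25 and −0.13. The 30 cell cycle genes had a median of −0.02 and the 34 tested Hox genes one of 0.14, with 0 called in either by limma (unadjusted p under 0.05 for 1 cell cycle gene, lower, and 3 Hox genes, higher).

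The effect of Pou4f3 was next set against the mean effect of Atoh1 and Gfi1 given alone. The Dox effect was higher in iPou4f3 cells by at least 1.5 on the log2 scale for 240 genes (1.43% of those tested) and lower for 267 (1.59%), at a limma adjusted p under 0.05. Both counts share the iPou4f3 libraries with the calls above. Pou4f3 itself differed by 8.33. Among the other genes also called up, by the limits of the named rises, the 8 widest differences were those of Lrrn3, Nptx1, Cps1, Mstn, Sncg, Paqr9, Cdh26 and Lrrtm4, between 6.03 and 8.83. Nptx1 changed by 0.17 in iAtoh1 and by −0.69 in iGfi1 cells, and Sncg by −0.15 and 0.59. Otof differed by 4.70 (standard error 0.59) and Ptprq by 5.74 (standard error 0.55), values that reuse the libraries in which both were called. Elavl4 (2.42), Syt1 (2.50), Lhx5 (5.30), Cyp26b1 (3.54), Gria4 (1.90) and Hrk (1.86) also had a higher effect in iPou4f3 cells. For Dcx (0.49, limma adjusted p = 0.647), Prrxl1 (1.35, limma adjusted p = 0.369), Insm1 (0.85, limma adjusted p = 0.426) and Barhl2 (1.30, limma adjusted p = 0.612) no difference passed. Stra6 rose less in iPou4f3 cells than in the others (−3.10, standard error 0.48, limma adjusted p = 0.000811). Leaving out any 1 iPou4f3 library gave 125 to 200 genes higher, the fewest without Dox replicate 1, and 115 to 201 lower. With all 14 untreated libraries as one control group the counts were 383 and 560.

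**Figure D4:**
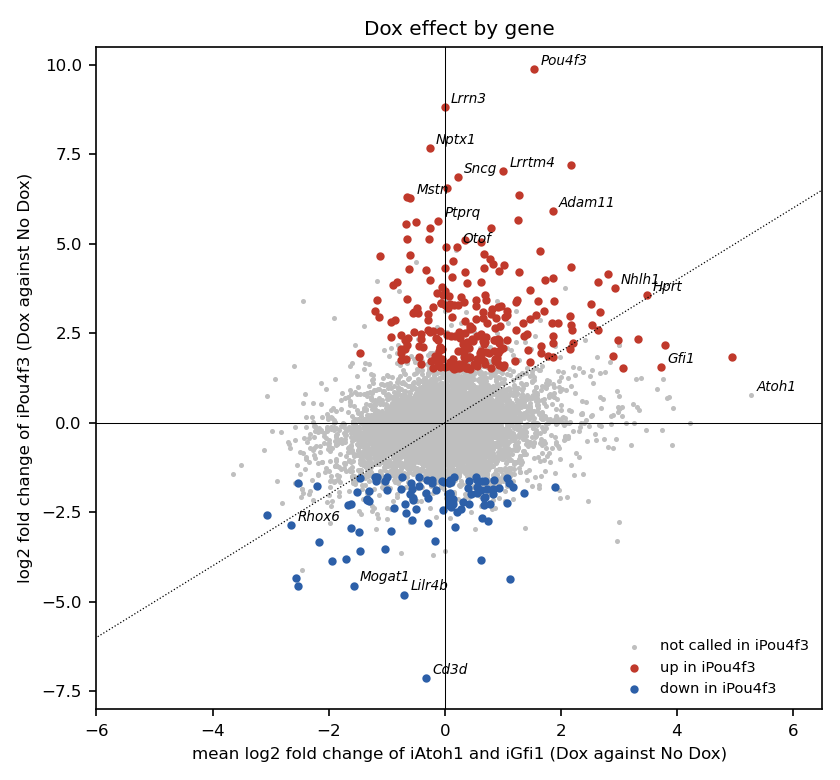
Log2 fold change in iPou4f3 cells (vertical) against the mean of those in iAtoh1 and iGfi1 cells (horizontal) for each of the 16837 genes tested, red for the 248 called up and blue for the 102 called down in iPou4f3 cells; the dotted line marks equal values. Lrrn3, Nptx1, Sncg and Ptprq lie near 0 on the horizontal axis, whereas Hprt lies on the dotted line.

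Genes raised by Pou4f3 alone were largely raised again when it was combined with Atoh1. Of the 248 genes up, 200 (80.6%) were also up in iP+A cells, where they were 25.3% of the genes up, and 4.7% of all tested genes were up in that line. In iG+P cells 159 were shared (64.1% of the iPou4f3 and 18.3% of the iG+P list), where 5.16% of tested genes were up, and in iGPA cells 169 (68.1% and 11.6%), where 8.65% were. Lines without the Pou4f3 cassette shared 107 with iG+A (43.1% and 8.64%), 56 with iAtoh1 (22.6% and 11.5%) and 33 with iGfi1 cells (13.3% and 9.12%), in which 7.35%, 2.89% and 2.15% of tested genes were up. The median log2 fold change of the 248 genes was 2.95 in iP+A, 2.62 in iGPA, 2.38 in iG+P, 1.10 in iG+A, 0.54 in iAtoh1 and 0.28 in iGfi1 cells. In all of iP+A, iG+P and iGPA 126 were up, 76 of them in neither iAtoh1 nor iGfi1. Calls of falls were shared less, with 26 in iP+A (25.5% of the 102 and 5.98% of the iP+A list), 16 in iG+P (15.7% and 1.77%) and 33 in iGPA cells (32.4% and 3.69%), and 55 of the 102 were down in none of them. Of all tested genes 2.58%, 5.36% and 5.31% were down in these lines. The median log2 fold change of the 102 genes was −0.99 in iP+A, −0.62 in iG+P and −0.99 in iGPA cells, with 92.2%, 73.5% and 69.6% of them below 0, and it was −1.13 in iG+A, −0.49 in iAtoh1 and −0.0047 in iGfi1 cells. Among lines without the Pou4f3 cassette, iG+A shared 34 falls (33.3% and 4.08%), iAtoh1 17 (16.7% and 4.01%) and iGfi1 12 (11.8% and 2.67%), beside 4.95%, 2.52% and 2.67% of tested genes down in them. With the replicate as a block, which gave 139 falls in iPou4f3 cells, 48, 30 and 51 were shared with iP+A, iG+P and iGPA. Without untreated replicate 1, which left 15 falls, 3, 3 and 4 were, and with each of the other libraries left out 5 to 14, 8 to 15 and 14 to 22. Leaving out 1 library gave 1 to 8 falls shared with iAtoh1 and 2 to 7 with iGfi1 cells. With all 14 untreated libraries as one control, 73 of 150 falls were shared with iG+P cells and 20 with iP+A cells.

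Single genes moved by different amounts in the combined lines. Ptprq rose by 5.63 in iPou4f3 and 5.26 in iG+P cells, by 2.96 in iP+A and by 0.25 in iGPA cells, where its effect was lower than in iPou4f3 cells by 5.38 (standard error 0.63), a value that reuses the libraries in which it was called. Otof had log2 fold changes of 4.90 in iPou4f3, 3.89 in iP+A, 6.48 in iG+P and 5.07 in iGPA cells. Mstn, up by 6.27 in iPou4f3 cells, changed by −0.75 in iP+A and by 0.00 in both iG+P and iGPA cells. Lhx5 had 4.70 in iPou4f3 and 3.68 in iP+A cells but −1.25 in iG+P and 0.43 in iGPA cells, and Cyp26b1 had 3.08 in iPou4f3 cells and 0.88, 0.32 and 1.41 in iP+A, iG+P and iGPA cells. Mstn was among 21 genes up in iPou4f3 cells and in none of the 3 combinations that hold Pou4f3.

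**Figure D5:**
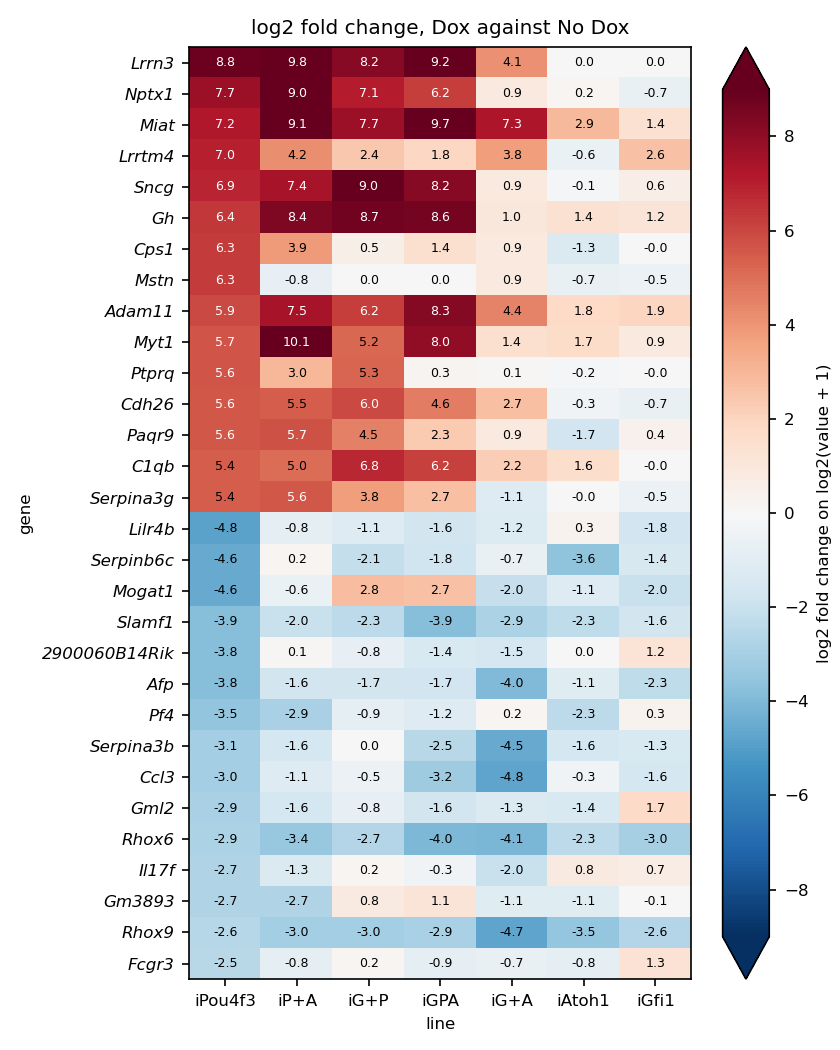
Log2 fold change (Dox against No Dox) of the 15 named rises and 15 named falls in each of the 7 lines, with the value printed in each cell and red for higher and blue for lower with Dox; rows were chosen on the iPou4f3 column. Most rises are red in iP+A, iG+P and iGPA too, Mstn is dark red in iPou4f3 only (6.27 beside −0.75, 0.00 and 0.00 in the 3 combinations), and Mogat1 is blue in iPou4f3 and red in iG+P and iGPA cells.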

How the data were processed

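Total RNA of untreated EBs and of sorted mVenus+ cells was sequenced as mRNA libraries made from 1 µg. After adapter removal with cutadapt, the authors assigned reads with kallisto to knownGene transcripts (UCSC, mm9), collapsed these to genes with tximport and scaled libraries with DESeq2. The deposited table, keyed by Entrez ID, gives log2(normalized count + 1) of 19421 genes in 28 libraries. RefSeq named 19314 of them, and 16756 were placed by name on NCBIM37. Values were turned back to normalized counts by raising 2 to them and subtracting 1. Whole reads were not recovered throughout, since 75.9% to 76.9% of low values in the iPou4f3 libraries lay within 0.05 of a multiple of the step, so no count model was used for the calls. The counting intervals of single genes near 0 do treat values divided by the step as whole reads.

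The 16837 genes that reached 10 normalized counts in 2 or more libraries entered a fit with limma 3.58.1 in R 4.3.3, in 14 groups with 14 residual degrees of freedom, a variance trend and Benjamini-Hochberg adjustment. Genes were called at an adjusted p under 0.05 and a change of 1.5 or more in log2 units. Named genes are Pou4f3, Gfi1, Atoh1 and the other Pou4f genes, the 15 largest rises and falls called (with no overlap of groups and a mean of at least 20 in the higher group, leaving out clustered protocadherins and 42 genes at 0 in an untreated library and above 50 in another, 5 of which fell), the 8 widest differences each way, called list members (the 6 largest of longer lists) and the study's markers, with a few members not reported here. The rises and differences leave out Pou4f3 itself. The differences were taken by the same limits, among genes also called in iPou4f3 cells in the same direction. The comparisons, members and the 38 gene lists were chosen with earlier results of these data known.

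Replicate numbers pair Dox and No Dox, since deviations of libraries with the same number correlated by 0.231 in iPou4f3 and by 0.103 to 0.246 over the 7 lines, although the record does not say that a number marks a clone. The replicate entered as a block in an alternative fit. Other alternatives were pseudocounts of 0.5 and 5, a filter of 50 and none, quantile normalization, rescaling by the 75th percentile, no trend, only the groups compared, all 14 untreated libraries as one control, a smaller change of 1 as the limit, and leaving out each iPou4f3 library. Leaving out the 42 genes above was added after the data were seen.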

Additional observations from a re-analysis of the deposited data

Results flagged for a closer look

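The Dox effect of single genes differed between lines by a limma test of the difference, adjusted over all genes tested. Each difference uses the iPou4f3 libraries by which the genes had been chosen, so it is given as a value only, in log2 units.

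Against the mean effect in iAtoh1 and iGfi1 cells, the effect in iPou4f3 cells was higher by 8.83 for Lrrn3, 7.93 for Nptx1, 6.95 for Cps1, 6.87 for Mstn, 6.64 for Sncg, 6.24 for Paqr9, 6.12 for Cdh26 and 6.03 for Lrrtm4. That of Lrrtm4 lost its call whichever iPou4f3 library was left out, and with no filter, quantile normalization, no trend or only the groups compared. It was lower there for 2900060B14Rik (−4.45), Lilr4b (−4.10), Il17f (−3.47), Tchh (−3.33), Gbx1 (−3.32), Gml2 (−3.09), Pabpn1l (−3.05) and Il34 (−2.97). These differences lost their call for 2900060B14Rik without untreated replicate 1, untreated replicate 2 or Dox replicate 1, for Gml2 without untreated replicate 2 or Dox replicate 1 and with all 14 untreated libraries as one control, for Lilr4b with that control, and for Pabpn1l without untreated replicate 1. Tchh, a protein of hair follicles, had 114 and 83.6 normalized counts without and 30.3 and 19.6 with Dox in iPou4f3 cells, and Gbx1, a homeodomain factor of the spinal cord, had 29.3 and 16.7 without and 7.12 and 1.96 with Dox. Pabpn1l, a poly(A)-binding protein of oocytes, had 82.5 and 34.5 without and 9.80 and 10.7 with Dox, and Il34, a ligand of the receptor Csf1r, had 107 and 64.9 without and 21.6 and 25.6 with Dox. Without untreated replicate 1 of iPou4f3 the fall of each of these 4 lost its call (adjusted p from 0.158 to 0.259), as it did in the fit of only the 4 iPou4f3 libraries (adjusted p from 0.0951 to 0.176).

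Some rises of iPou4f3 cells were weaker in a combined line. Mstn differed by −7.02 in iP+A, by −6.27 in iG+P and by −6.27 in iGPA cells, each as the combined line minus iPou4f3. Cps1 differed by −5.78 in iG+P and by −4.86 in iGPA cells, Ptprq by −2.67 in iP+A and by −5.38 in iGPA cells, and Serpina3g by −1.69 in iG+P and by −2.75 in iGPA cells. Other rises were stronger in a combined line. Myt1 differed by 4.39 in iP+A and by 2.32 in iGPA cells, Miat by 2.48 and Adam11 by 2.38 in iGPA cells, and Sncg by 2.12 in iG+P cells.

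Some falls of iPou4f3 cells were weaker or turned into rises in a combined line. Mogat1 differed by 7.36 in iG+P and by 7.21 in iGPA cells, where its own fold changes were 2.81 and 2.66. Its untreated iPou4f3 libraries had 564 and 543 normalized counts, beside a median of 33.1 in the other 12 untreated libraries. Lilr4b differed by 4.01 in iP+A, by 3.68 in iG+P and by 3.16 in iGPA cells, and Gm3893 by 3.52 in iG+P and by 3.86 in iGPA cells. Il17f differed by 2.89 in iG+P and by 2.40 in iGPA cells, Serpina3b by 3.08 and Fcgr3 by 2.65 in iG+P cells. Other falls were as deep in a combined line. Rhox9 changed by −3.03 in iP+A, −3.04 in iG+P and −2.90 in iGPA cells, and Slamf1 by −3.85 in iGPA cells.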

How the results depend on the processing

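The causes of the moves given here were not tested. In a fit of only the groups compared there were 117 genes up and 18 down, and 91, 77 and 80 of the genes up were also up in iP+A, iG+P and iGPA cells (genes down shared with iP+A 4, iG+P 5, iGPA 10, iAtoh1 3 and iGfi1 3, genes up shared with iAtoh1 16 and iGfi1 12). With all 14 untreated libraries as one control, 383 effects were higher and 560 lower than the mean of iAtoh1 and iGfi1, and genes down shared with iG+P were 73, with iAtoh1 6 and with iGfi1 7. At a log2 fold change of at least 1 there were 157 genes down and 417 effects higher, and genes down shared with iP+A were 55, with iG+P 34, with iGPA 57 and with iAtoh1 34, and genes up shared with iAtoh1 98. A pseudocount of 5 gave 16, 8, 20 and 10 genes down shared with iP+A, iG+P, iGPA and iAtoh1. The fit with the replicate as a block, which pairs the libraries, gave 261 genes up and 139 down, kept 238 of the 248 and 93 of the 102, and gave 48, 30, 51 and 35 genes down shared with the same lines. Of the named genes it ended the call of Cdh15 only (−1.78, limma adjusted p = 0.0525). Leaving out each iPou4f3 library in turn gave 168 to 199 genes up, 15 to 67 down, 125 to 200 effects higher and 115 to 201 lower, and 141 to 166, 116 to 131 and 119 to 142 genes up shared with iP+A, iG+P and iGPA. Of the 248 and 102 genes, 115 and 14 were called in the fit of only the groups compared, 211 and 52 with one control, and 157 and 12 without untreated replicate 1. Among the named genes 42 lost their call in the fit of only the groups compared, 13 with one control, and 25 to 39 when a library was left out. No called named gene turned its direction, while Atoh1 (−0.49 to 1.22), Lhx3 (−0.76 to 0.63), Espn (−0.62 to 0.09) and Myo7a (−0.11 to 0.02), none of them called, changed sign over the settings, and 15 of 15 named rises kept their call under each setting that left no library out. Leaving out the 42 genes at 0 in an untreated library and above 50 in another, chosen after the data were seen, gave 248 up and 97 down. Depth limits the folds of genes at or near 0, and 2 libraries a group limit those of the falls.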

Other observations

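Genes of liver and gut, put together after values were seen, made up 9 of the 248 rises in iPou4f3 cells, and how many such genes were tested was not counted. Cps1 has been described above. Aldh1a7, an aldehyde dehydrogenase, had 3.38 and 1.12 normalized counts without and 117 and 97.9 with Dox (log2 fold change 5.15, limma adjusted p = 7.54e-05). Fabp1, the fatty acid carrier of liver and gut, had 1.13 and 1.11 without and 59.6 and 66.5 with Dox, a ratio of 56.2 with a counting interval of 15.3 to 469. A2m, a broad protease inhibitor of plasma, had 333 and 205 without and 2833 and 1804 with Dox (3.11, limma adjusted p = 0.000386). In each of these genes both Dox libraries stood above both untreated ones. Of the 9 genes, 6 were also called up in iP+A, 3 in iG+P, 2 in iGPA and 0 in iAtoh1 or iGfi1 cells by limma. Over the 22 endoderm genes tested no member rose by limma (0 upward at an unadjusted p under 0.05).

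Defensins, antimicrobial peptides of gut and epididymis whose near-identical copies share reads, made up 5 of the 248 rises, out of 16 tested genes with names that begin in Def, Def6 and Def8 included, which are not defensins, and beside 1.47% of all tested genes. The summed level of these 5, which were taken from the called genes, was 1.14 and 5.53 normalized counts without and 80.5 and 142 with Dox. Also called up in iG+P and iGPA cells were 5 of them, and 3 in iP+A cells. Defa20 had 1.14 and 2.21 without and 45.6 and 82.5 with Dox, a ratio of 37.5 with a counting interval of 12.6 to 184. Cartpt, a neuropeptide precursor, was at 0 in both untreated libraries and had 20.5 in each with Dox, at least 6.06-fold higher.

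Blood genes were also counted among the 102 falls after values were seen. Genes of platelets and megakaryocytes numbered 9, and their summed level was 6672 and 4862 normalized counts without and 1234 and 1277 with Dox. Plek, the main substrate of protein kinase C in platelets, went from 4212 and 2971 to 704 and 724 (−2.31, limma adjusted p = 0.00481), and the platelet glycoprotein Gp5 from 155 and 99.1 to 25.8 and 27.4 (−2.18, limma adjusted p = 0.0151). Genes of leukocytes numbered 15, with sums of 2007 and 1234 without and 326 and 320 with Dox. Btk, a kinase of B cells, went from 147 and 62.5 to 15.1 and 19.6 (−2.41, limma adjusted p = 0.00219). Members of both groups were taken from the genes called down, so the direction of their sums follows from that choice, how many such genes were tested was not counted, and 3 of them, Lilrb4a, Rgs18 and Cd3d, were at 0 in an untreated library and above 50 in another. Untreated replicate 1, the library with high immediate early genes, had the higher sum of the untreated pair in both groups, and without it 12 of the 102 falls were still called. Over the 24 blood genes of the list described above the median log2 fold change was −0.17, with 7 genes above 0. The adult beta globin gene Hbb-bs, whose reads can be shared with near copies, rose from 12044 and 7783 to 40087 and 34461 (1.94, limma adjusted p = 0.0390).

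In all 7 lines 12 of the 248 genes were up with Dox and 3 of the 102 were down, the latter being Rhox6, Rhox9 and Tfec. Hprt, the gene beside which the inducible cassette of A2loxCre cells stands, was one of the 12, with 632 and 686 normalized counts without and 7154 and 8564 with Dox in iPou4f3 cells (3.57, standard error 0.19, limma adjusted p = 1.12e-09). Adam11, Grin2c, Kcnj12, Prrxl1 and Stra6 were others of the 12.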
